A study of Mus musculus with 12 samples.

Results

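Target site S18 is one of 4 genomic sites cut by Cas9 in muscle stem cells (MuSCs) of living mice, cells that lie along the fibre and rebuild it after injury, and then read molecule by molecule. The results below cover every indel counted in its 2 edited samples, S18 replicates 1 and 2, which is 482 of the 2623 indels in the 8 edited samples (S18, S1, S7 and S28, replicates 1 and 2 each). The edited cells were sorted by the GFP of Pax7 Cas9 mice, in which Pax7-driven Cre, active in the MuSC lineage, switches on Cas9 with EGFP from the Rosa26 locus. An AAV9 vector carrying the sgRNA was injected into muscle at P10 and cells were isolated 4 weeks later. An unedited S18 sample is also named in the series, but neither table used here has a row for it, so no value of unedited cells stands beside the values below (0 samples). The assay reads genomic DNA, so the cells' identity could not be checked against marker genes. The methods state that indels also found in unedited controls had been removed. The study took these sites forward for their large events in short reads, which therefore do not stand for sites at large. One legend speaks of a virus with dual sgRNAs and the methods of an sgRNA, and the values are described as those of a single cut.

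Cas9 cuts both DNA strands a few bases before the PAM, the NGG motif that it needs beside the guide's target. The cell rejoins the ends with or without loss or gain of bases. Canonical end joining often leaves small changes, among them insertions that copy the base next to a staggered cut, while microhomology-mediated joining pairs short repeats on either side and deletes what lies between. A microhomology (MH) here is the run of bases that a deletion can slide along without changing its product.

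The site was placed on the mouse genome by the deleted sequences that the indel profile lists. A stretch of 60 bases around the cut matched GRCm38 once, on chromosome 16, and 364 of 365 deleted sequences that could be compared were equal to the genome there. The cut lies between chr16:92825610 and chr16:92825611. It falls in Runx1, the gene of a transcription factor best known for its part in blood formation, which is read from the minus strand (chr16:92601466-92826149). It cuts the coding part of an exon (chr16:92825589-92825646, 58 bp) that is exon 2 of one annotated coding transcript and exon 1 of another and that holds the start codon of both. On the plus strand, the splice donor that ends this exon lies to the left of the cut (chr16:92825587-92825588) and the start codon to the right (chr16:92825644-92825646). The 40 bases around the cut are shown first, on the plus strand of GRCm38 (chr16:92825591-92825630), with the 20 bases of the guide's target in capitals, and then that target again with its PAM in capitals.
S18: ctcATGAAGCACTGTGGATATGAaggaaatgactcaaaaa
S18 target and PAM: atgaagcactgtggatatgaAGG

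The cut separates an A on the left (position -4 from the PAM) from a T on the right (position -3), inside the letters ATAT. A GGA stands on each side of the cut, 9 bp apart. Both features come back in the most frequent products below.

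Depth was alike in the S18 samples. Replicate 1 held 7762 UMI types, each UMI (unique molecular identifier) marking 1 starting molecule, and 246 indels. Replicate 2 held 7342 UMI types and 236 indels. The samples of the other 3 sites held 3745 to 10848 UMI types and 95 to 699 indels. At S18 the indel profile, with 1 record kept per UMI, matched the counts of deletions (194 in replicate 1 and 166 in replicate 2) and of insertions under 20 bp (36 and 56). It gave 12 of the 16 large insertions (LIs, 20 bp or more) of replicate 1 and 13 of the 14 of replicate 2, and the other 5 were counted but not analysed here. Among the UMIs of listed indels, no sequence occurred in both S18 replicates (0), and the other UMI types were not compared. Intervals below are 95% Wilson intervals and cover counting error only. A UMI marks a molecule and not a repair event, and how many molecules descend from 1 edited cell was not tested.

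The commonest products at S18 were small and few. The 10 most frequent types, a type being a distinct allele, were 2 insertions and 8 deletions. They were picked by their molecules in both replicates together, which favours types seen in both. All 10 were seen in both replicates, and they made up 106 of 246 indels in replicate 1 (43.1%) and 94 of 236 in replicate 2 (39.8%). They are shown in the 40-base window, in the order of their molecules in both replicates together. Capitals mark an inserted base or the MH of a deletion, kept once in the product.
1 bp insertion of A: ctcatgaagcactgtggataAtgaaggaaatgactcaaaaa
9 bp deletion: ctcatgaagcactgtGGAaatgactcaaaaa
2 bp deletion: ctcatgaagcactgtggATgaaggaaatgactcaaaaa
1 bp insertion of T: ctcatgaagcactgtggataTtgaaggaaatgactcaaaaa
6 bp deletion: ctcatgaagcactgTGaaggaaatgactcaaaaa
1 bp deletion left of the cut: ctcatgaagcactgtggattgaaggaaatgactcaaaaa
3 bp deletion: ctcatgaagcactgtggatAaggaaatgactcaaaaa
1 bp deletion right of the cut: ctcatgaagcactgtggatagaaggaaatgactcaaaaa
5 bp deletion: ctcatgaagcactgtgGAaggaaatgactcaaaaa
21 bp deletion: ctcatgaagcACTcaaaaa

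A deletion and an insertion led, and they changed places between the replicates. The 9 bp deletion, which joins the pair of GGA repeats and keeps 1 of them, was carried by 29 molecules in replicate 1 (11.8% of indels) and by 15 in replicate 2 (6.36%). The inserted A was carried by 21 molecules in replicate 1 (8.54%) and by 28 in replicate 2 (11.9%). It was thus the commonest type of replicate 2, while the deletion was the commonest type of replicate 1. For the inserted A, the difference of 3.33 percentage points (replicate 2 minus replicate 1) had an interval of -2.13 to 8.88 and an adjusted p of 0.419 by Fisher's exact test (two-sided, over 9 classes).

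The other 8 types were on fewer molecules. The 2 bp deletion takes 1 AT out of ATAT and was found on 13 molecules in replicate 1 and 15 in replicate 2. The inserted T was found on 5 and 9 molecules, and the 6 bp deletion with a TG repeat on 9 and 5. The 1 bp deletion left of the cut had 6 molecules in each replicate, as had the 3 bp deletion, and the 1 bp deletion right of the cut had 5 in each. The 5 bp deletion was the least even, with 8 molecules in replicate 1 and 1 in replicate 2. The 21 bp deletion, between ACT repeats, had 4 in each. Of the 8 deletions among these types, 6 had an MH of 1 to 3 bp.

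Short insertions held a larger share of the indels at S18 than at the other sites. Insertions under 20 bp were 36 of 246 indels in replicate 1 (14.6%, 10.8 to 19.6) and 56 of 236 in replicate 2 (23.7%, 18.7 to 29.6). In the 6 samples of the other sites they were 0.833% to 5.25% of indels. The S18 mean was 19.2% ± 6.43 (SD, n = 2), against 3.59% ± 1.75 elsewhere (SD, n = 6), and both S18 samples lay above all 6 others. The difference of 15.6 percentage points had p = 0.0357 (exact permutation test, two-sided, 28 arrangements), the smallest p that 28 arrangements allow. Adjusted over 9 indel classes this p was 0.0804, which does not pass 0.05. Even at this smallest p, a class could pass only if most of the 9 classes reached it together. Here and below, the permutation tests between sites treat the replicates of a site as separate units. For a difference between sites they are not independent, and with whole sites as units no p could be this small. Per UMI type the groups overlapped, with 0.464% in replicate 1 and 0.763% in replicate 2 of S18, against 0.0184% to 0.507% in the other samples (p = 0.143, adjusted 0.536, exact permutation).

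**Figure D1:**
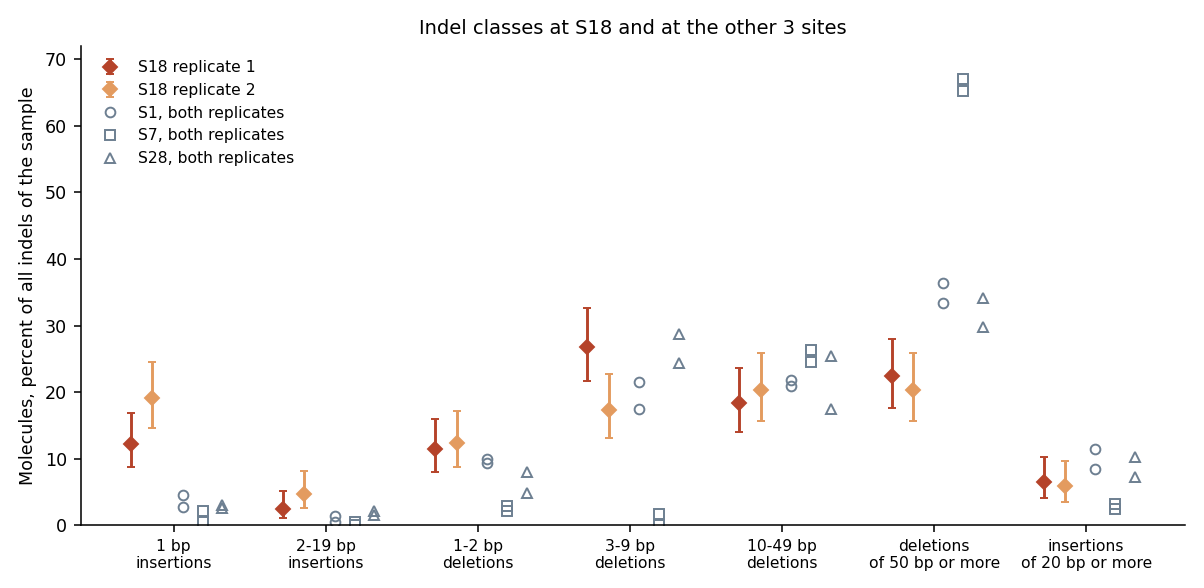
Share of each indel class among all indels of a sample (percent, vertical axis), with the classes along the horizontal axis. Diamonds are the S18 replicates with 95% Wilson intervals and open symbols are both replicates of S1, S7 and S28. The S18 replicates lie at 12.2% and 19.1% for 1 bp insertions, against at most 4.58% in the other samples, and at 22.4% and 20.3% for deletions of 50 bp or more, against at least 29.8%.

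By length, 75 of the 92 short insertions of S18 were of 1 bp. There were 30 in replicate 1 and 45 in replicate 2, which is 12.2% and 19.1% of indels, against 0.417% to 4.58% in the samples of the other sites. At S18 the mean was 15.6% ± 4.86 (SD, n = 2), against 2.58% ± 1.35 elsewhere (SD, n = 6), again with p = 0.0357 and an adjusted p of 0.0804 (exact permutation). Per UMI type they were 0.386% in replicate 1 and 0.613% in replicate 2, against 0.0114% to 0.451% in the other samples, where the groups again overlapped (p = 0.107, adjusted 0.536, exact permutation). Insertions of 2 bp numbered 3 in replicate 1 and 8 in replicate 2. Lengths of 3 and 4 bp were seen in replicate 2 only, on 2 molecules and 1 molecule, and lengths of 7 and 9 bp in replicate 1 only, on 2 molecules and 1 molecule. No molecule carried an insertion of 5, 6, 8 or 10 to 19 bp (0 of 482 indels). Insertions of 2 to 19 bp together were 2.44% of indels in replicate 1 and 4.66% in replicate 2, against 0% to 2.21% in the other samples. The groups did not overlap, but the lower S18 sample and the highest of the others were close (p = 0.0357, adjusted 0.0804, exact permutation). Per UMI type the difference was 0.0288 points (p = 0.643, adjusted 0.763, exact permutation).

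**Figure D2:**
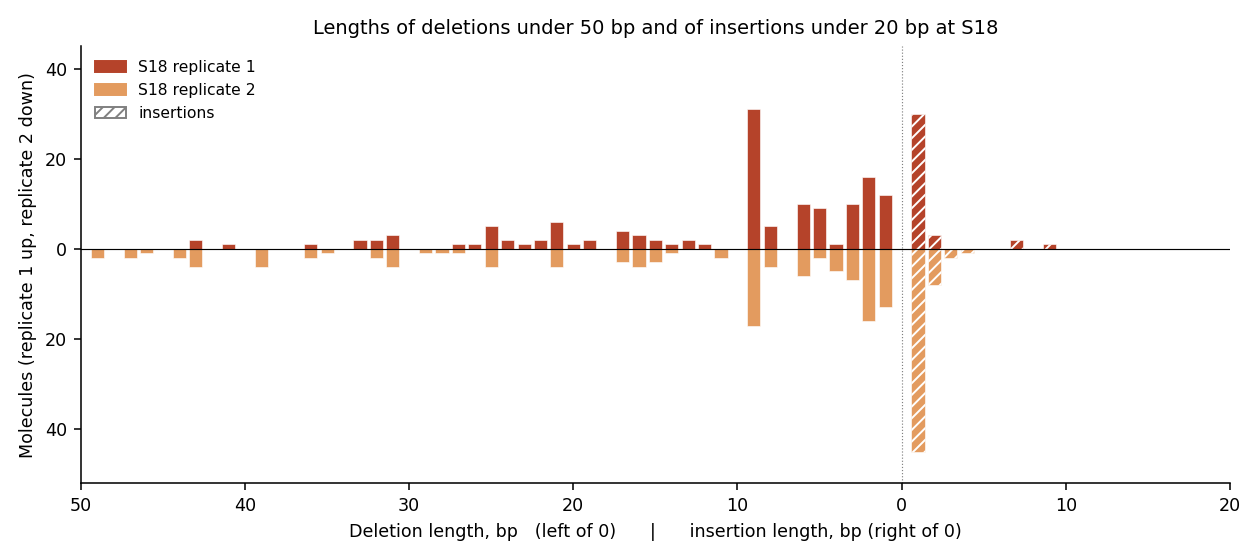
Number of molecules (vertical axis, replicate 1 upward and replicate 2 downward) by the length of the deletion (bp, left of 0, up to 49) or insertion (bp, right of 0, hatched, up to 19) at S18. Insertions of 1 bp, on 30 and 45 molecules, and deletions of 9 bp, on 31 and 17 molecules, are the tallest bars of replicate 1 and of replicate 2.

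Most single inserted bases repeated a base beside the cut. In replicate 1, 21 of 30 single inserted bases were an A that repeats the base left of the cut (70.0%, 52.1 to 83.3). In replicate 2 this was so for 28 of 45 (62.2%, 47.6 to 74.9). A T that repeats the base right of the cut was inserted on 5 of 30 molecules in replicate 1 and on 9 of 45 in replicate 2. Together 63 of 75 single inserted bases equalled a neighbour of the cut. The neighbours are different bases, so a part of random letters would match them too, and no such level was computed here. The other bases at the cut were G, on 4 molecules in replicate 1 and 2 in replicate 2, and C, on none in replicate 1 and 3 in replicate 2. In all, 72 of 75 could be placed exactly at the cut, and the other 3, all in replicate 2, lay 2 to 4 bp to its left.

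Among the 2 bp insertions, TA was the most frequent. It repeats the pair of bases left of the cut and was found on 4 of 8 molecules in replicate 2 and on 0 of 3 in replicate 1. An inserted AA was carried by 1 molecule in replicate 1 and 2 in replicate 2. The 9 bp insertion repeated 9 bases around the cut in tandem, the same stretch that the 9 bp deletion removes. In all, the short insertions came as 19 types, of which 4 were seen in both replicates. These 4 types held 31 of 36 short insertions in replicate 1 (86.1%) and 41 of 56 in replicate 2 (73.2%).

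Most deletions under 10 bp removed, or could be slid onto, a base beside the cut. Placed leftmost, 41 of 139 deletions under 50 bp in replicate 1 and 35 of 118 in replicate 2 lay wholly left of the cut. Wholly right of it lay 11 and 9, and leftmost placement itself raises the left count. Deletions of 1 to 2 bp numbered 28 in replicate 1 (11.4% of indels) and 29 in replicate 2 (12.3%), against 2.11% to 10.01% in the other samples. The difference in means of 5.62 percentage points had p = 0.0714 in the exact permutation test and an adjusted p of 0.107. All 2 bp deletions, 16 in each replicate, removed or could be slid onto a base beside the cut, as did 11 of 12 and 11 of 13 of the 1 bp deletions. Deletions of 3 to 9 bp numbered 66 in replicate 1 (26.8%) and 41 in replicate 2 (17.4%), and 63 and 40 of them touched a base beside the cut. In the other samples this class ran from 0% to 28.7%, so that the ranges overlapped.

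This was also where the S18 replicates were furthest apart. Replicate 2 had fewer 3 to 9 bp deletions than replicate 1 (a difference of -9.46 percentage points, replicate 2 minus replicate 1, interval -16.7 to -2.03) and more short insertions (9.09 points, 2.07 to 16.1). By Fisher's exact test each had an adjusted p of 0.0705 (raw p 0.0157 and 0.0146). For 1 bp insertions alone the difference was 6.87 points (0.379 to 13.4), with a raw p of 0.0441 and an adjusted p of 0.132 by the same exact test. The shares of 1 to 2 bp deletions, 10 to 49 bp deletions, LDs and LIs differed by 0.572 to 2.05 points in size, and the interval of the LD difference, for one, ran from -9.30 to 5.32 points.

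Deletion sizes at S18 spread from 1 bp to more than 1 kb. The median was 13.5 bp in replicate 1 (quartiles 6 and 68.8 bp) and 19 bp in replicate 2 (5 and 67 bp). In the other samples the medians were 22 to 36 bp at S28 and S1 and 113 to 120 bp at S7, so both S18 medians were below all others. Over distinct types the ranges overlapped, with medians of 59.5 bp in replicate 1 and 47 bp in replicate 2 of S18, against 53 to 202 bp in the other samples. Deletions of 10 to 49 bp numbered 45 in replicate 1 (18.3% of indels) and 48 in replicate 2 (20.3%). Those of 30 to 49 bp numbered 11 in replicate 1 and 24 in replicate 2. A difference between sites in the medians was not tested.

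Large deletions (LDs, 50 bp or more) were carried by 55 molecules in replicate 1 and 48 in replicate 2. Their median size was 273 bp in replicate 1 and 186 bp in replicate 2, with 34 (61.8%) and 22 (45.8%) of 200 bp or more and 13 and 12 of 500 bp or more. The longest 3 were 1312, 949 and 878 bp in replicate 1 and 930, 920 and 865 bp in replicate 2. As a share of indels LDs were 21.3% ± 1.43 at S18 (SD, n = 2) and 44.3% ± 17.1 at the other sites (SD, n = 6), and both S18 samples lay below all 6 others. The difference of -23.0 points had p = 0.0714 and an adjusted p of 0.107 (exact permutation). The S7 samples lay highest, at 65.3% and 67.1%, and without S7 the difference was -12.1 points (p = 0.0667, the smallest this allows, adjusted 0.15, exact permutation). Per UMI type the groups overlapped, with 0.709% in replicate 1 and 0.654% in replicate 2 of S18, against 0.572% to 3.67% in the other samples (p = 0.179, adjusted 0.536, exact permutation).

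LDs reached out from the cut to both sides. Of 55 in replicate 1, 53 spanned the cut, and all 48 did so in replicate 2. The authors kept an indel only where it overlapped the 30 bp left or right of the cut. On the left the median reach was 103 bp in replicate 1 and 76.5 bp in replicate 2, and on the right 66 and 51 bp. The larger part lay left of the cut in 32 of 55 LDs (58.2%) and in 28 of 48 (58.3%). The longest LD of replicate 1 ran from 385 bp left to 927 bp right of the cut, that of replicate 2 from 107 bp left to 823 bp right. One end lay within 30 bp of the cut on the right in 16 LDs of each replicate and on the left in 10 and 5.

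**Figure D3:**
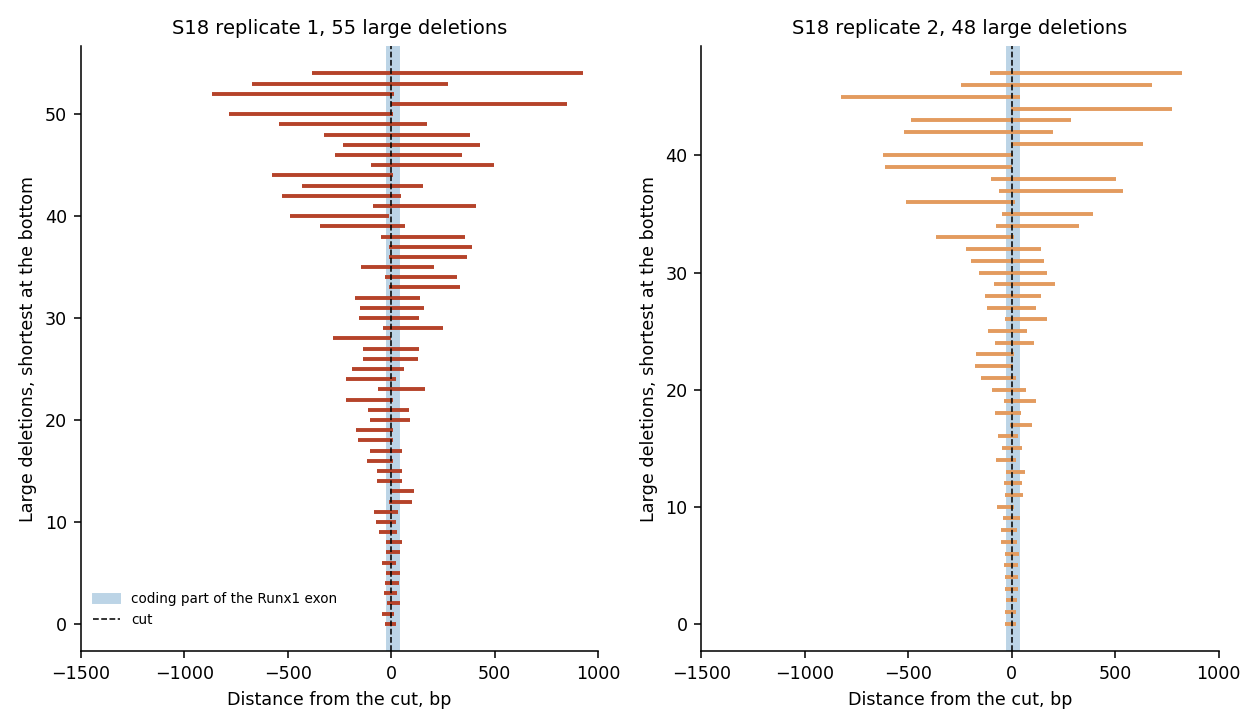
Each horizontal line is 1 large deletion of S18 replicate 1 (left panel, 55) or replicate 2 (right panel, 48), drawn from end to end by its distance from the cut in bp and stacked from the shortest to the longest. The shaded band is the 58 bp coding part of the Runx1 exon, which most of the lines cover or enter from one side.

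MH was common at deletion ends. It was at least 1 bp in 156 of 194 deletions in replicate 1 (80.4%, 74.3 to 85.4) and in 130 of 166 in replicate 2 (78.3%, 71.4 to 83.9). It was at least 2 bp in 64.4% and 64.5%. In the other samples, MH of at least 1 bp was found in 66.9% to 86.5% of deletions, a range that holds both S18 values. A share of deletions has an MH of 1 bp whatever the way of joining, and no such level was computed here. By size, MH of at least 2 bp was found in 13 of 28 and 15 of 29 deletions of 1 to 2 bp, which at S18 are the 2 bp losses from ATAT. Among LDs, MH of at least 1 bp was found in 48 of 55 (87.3%) and 40 of 48 (83.3%), against 80.4% to 86.8% at the other sites. MH of 4 bp or more was found in 13 of 55 LDs in replicate 1 and in 3 of 48 in replicate 2, and the longest was 8 bp, on 1 LD of replicate 1.

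Recurrence of deletion types fell with their size at S18. At S18, 127 types were seen in replicate 1 and 121 in replicate 2, and 31 of these were shared, out of 217 in either (Jaccard score 0.143). The shared types were 24.4% of the types of replicate 1 and 25.6% of those of replicate 2. They nonetheless held 144 of 242 listed molecules in replicate 1 (59.5%) and 133 of 235 in replicate 2 (56.6%). On the other side, 175 types were seen on 1 molecule only.

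Of deletions under 10 bp, 14 of 22 types were shared (Jaccard 0.636), and they held 90 of 94 such molecules in replicate 1 and 63 of 70 in replicate 2. Of deletions of 10 to 49 bp, 10 of 54 types were shared (0.185), with 44.4% and 52.1% of molecules. Of LDs, 3 of 97 types were shared (0.0309), with 3 of 55 molecules in replicate 1 and 4 of 48 in replicate 2. Of insertions under 20 bp, 4 of 19 types were shared (0.211), a lower score than that of deletions under 10 bp. Of the 25 listed LIs none was shared (0), and none was shared at S1, S28 or S7 either. To count as shared, an LI had to match in place, length and every letter, so a single misread base would part 2 equal LIs. The 3 shared LDs, named after their values were seen, were 53, 67 and 97 bp long with an MH of 2, 3 and 0 bp. The most frequent LD type was on 3 molecules in both replicates together.

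The score also fell from deletions under 10 bp to those of 10 to 49 bp and to LDs at S1 (0.5, 0.165 and 0.0468) and S28 (0.415, 0.167 and 0.0516). At S7, with 13 deletions under 10 bp in all, it was 0.167, 0.265 and 0.0212. For all listed indels the Jaccard score was 0.1002 at S1, 0.120 at S28 and 0.0628 at S7, so that S18 was highest of the 4. The score depends on the number of molecules, which differed between sites, and no test was made. Of the 10 most frequent types of each replicate, 8 were shared at S18, 6 at S1, 5 at S28 and 3 at S7. The share of indels held by the most frequent type of each sample was 11.8% and 11.9% at S18 and 3.75% to 10.6% in the other samples. The difference of 5.201 points had p = 0.0357 and an adjusted p of 0.0804 (exact permutation). Taken per UMI type, the direction turned (-0.106 points). Indels were 3.17% and 3.21% of UMI types in the S18 replicates, against 6.31% to 10.1% at S1 and S28 and 0.876% and 2.73% at S7.

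**Figure D4:**
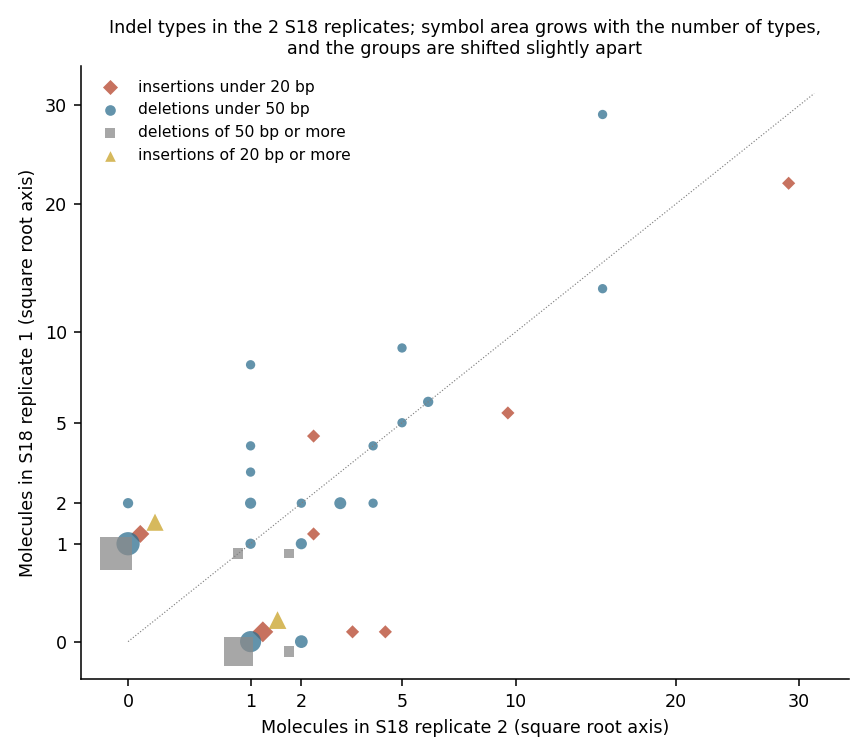
Each indel type of S18 is placed by its molecules in replicate 2 (horizontal, square root axis) and in replicate 1 (vertical, square root axis). Symbols show the kind, their area the number of types at that place, and the dotted line equal counts. The 9 bp deletion (29 in replicate 1, 15 in replicate 2) and the inserted A (21 and 28) stand at the upper right, while nearly all LDs and all LIs lie on the axes, in 1 replicate only.

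In the coding part of the Runx1 exon, the products fell into frame-keeping and frame-shifting ones. Deletions that lay wholly inside it numbered 138 in replicate 1 and 111 in replicate 2. Together with the short insertions, 67 of 174 such indels in replicate 1 had a length that is a multiple of 3 (38.5%, 31.6 to 45.9). In replicate 2 this was so for 44 of 167 (26.3%, 20.3 to 33.5). The intervals overlap at their ends, and the difference was not tested. Frame was read from 1 record per UMI, while 10 of all listed UMIs in replicate 1 and 18 in replicate 2 had 2 records. Deletions of 9 bp made up 31 of the in-frame indels in replicate 1 and 17 in replicate 2. Other in-frame deletions were of 3 bp (10 and 7), 6 bp (10 and 6) and 21 bp (6 and 4).

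The other deletions left the coding part. In replicate 1, 48 of 194 deletions removed at least 1 base of the splice donor (24.7%) and 39 removed at least 1 base of the start codon (20.1%), 31 of them both. In replicate 2 these were 52 of 166 (31.3%), 30 (18.1%) and 27. Deletions under 50 bp that reached the splice donor were 0 in replicate 1 and 7 in replicate 2, and those that reached the start codon were 1 and 0. No RNA or protein was measured in these samples. Effects on the Runx1 transcripts were therefore not tested.

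LIs were counted on 16 molecules in replicate 1 (6.50% of indels) and 14 in replicate 2 (5.93%), against 2.5% to 11.5% in the other samples, with an adjusted p of 0.714 in the exact permutation test. The 12 listed LIs of replicate 1 were 43 to 371 bp long, with a median of 127.5 bp. The 13 of replicate 2 were 44 to 1752 bp long, with a median of 181 bp. The longest 3 were 371, 299 and 289 bp in replicate 1 and 1752, 613 and 609 bp in replicate 2. Of the 25, 20 lay within 2 bp of the cut, and the farthest lay 13 bp from it.

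Of the 25 listed LIs, 5 matched the mouse genome over at least 50% of their length, 2 in replicate 1 and 3 in replicate 2. In 4 of them the match lay on chromosome 16 within 1 kb of the cut. In replicate 1, an LI of 201 bp matched chr16:92825688-92825888, whose near end is 77 bp from the cut, and one of 299 bp matched chr16:92826077-92826376, 466 bp away. In replicate 2, an LI of 136 bp matched chr16:92825099-92825234, 377 bp away, and one of 181 bp matched chr16:92825484-92825621, which includes the cut itself. The remaining one, of 163 bp in replicate 2, matched chr7:73029842-73030003 at an identity of 100%. The other 20 had no such match, 10 in each replicate. Of these, 3 (1 in replicate 1, of 83 bp, and 2 in replicate 2, of 305 and 1752 bp) held the whole 20-base guide target shown above. In all 3 it was followed by the same 10 bases, which are not the bases that follow it at S18. The sequence of the viral vector was not used here, and the origin of these 20 was not tested.

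**Figure D5:**
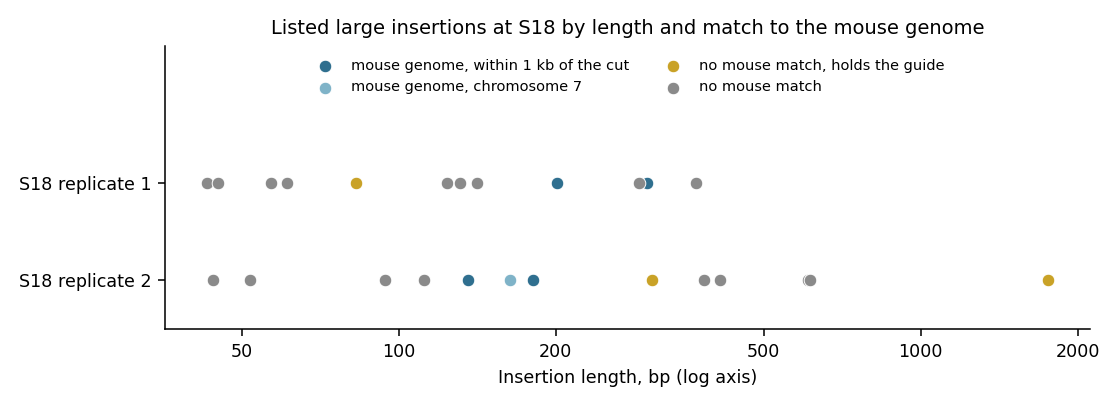
Length of each listed LI (bp, log axis) in S18 replicate 1 (upper row, 12) and replicate 2 (lower row, 13). Colours show a match to the mouse genome within 1 kb of the cut (4 LIs), on chromosome 7 (1 LI) or no match over at least 50% of the length, with the 3 LIs that hold the guide target apart from the rest.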

How the data were processed

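DNA of MuSCs was read by IDM-seq at 4 sites: each molecule received a UMI before a stretch of about 2 kb was amplified. The authors kept Nanopore reads of quality 10 or higher, called variants per UMI with VAULT and counted indels outside a window of 30 bp around the cut as wild type. They deposited whole-number counts of UMI types, indels, insertions, deletions, LIs (20 bp or more) and LDs (50 bp or more) per sample, and the LIs and LDs as a fraction of indels. Their deposited indel profile gives each event's position, lengths and letters. VAULT's version, and the aligner and build of that step, were not given in the sources used here. BWA and mm10 are named for the origin of LIs, but no such assignment was used. Depth was 3745 to 10848 UMI types and 95 to 699 indels per sample.

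From these, 1 record per UMI was kept (28 S18 UMIs had 2 lines), the one nearest the cut. Deletions and short insertions then matched the deposited counts at S18. Of its 30 LIs, 25 had a line. Alleles were moved to their leftmost place. Class shares are percentages of the deposited indel counts. S18 was set against the other sites by exact permutation of the sample labels (two-sided), and its replicates against each other by Fisher's exact test, each adjusted by Benjamini-Hochberg over 9 classes at a threshold of 0.05. Types named are the 10 most frequent, every insertion length and the longest 3 deletions and insertions per replicate. LIs were compared with GRCm38 by BLAST+ 2.17.0 (expectation at most 1e-05, identity at least 90%). SciPy 1.17.1 was used. Alternatives were each sample or site left out, a logit scale, a replicate block, other denominators, windows and class limits, and other definitions of a type. Steps were tested on simulated data. The site, the classes and the lists were chosen with earlier results of these data known. Titles only number the replicates. The permutation p-values mix differences between sites with those between replicates, and treat the replicates of a site as separate units. The Fisher p-values compare 2 libraries and cover counting error only. Removal of indels seen in unedited cells can lower any edit that resembles them, and favoured amplification of short molecules can raise LD counts. No column of per-sample values was left unused (0).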

Additional observations from a re-analysis of the deposited data

How the results depend on the processing

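No class at S18 passed an adjusted 0.05 against the other sites, in the main analysis or under any alternative. The excess of 1 bp insertions, of 2 to 19 bp insertions and of all insertions under 20 bp and the deficit of LDs kept their direction under all 20 alternatives. Some of these could not move a given difference. The replicate block changes only the p, and a changed class limit only the classes it bounds. Under the alternatives that could move them, the sizes changed. With UMI types as the denominator the short insertion classes and the LDs of S18 and of the other sites overlapped. The difference in 2 to 19 bp insertions was then 0.0288 points (p = 0.643, adjusted 0.763, exact permutation). Without each sample in turn the excess of insertions under 20 bp ran from 11.0 to 20.1 percentage points and the LD difference from -25.9 to -18.4, which was -12.1 without both S7 samples. The smallest possible p was 0.143 without an S18 replicate, 0.0667 without another site and 0.0625 with a replicate block. All are above 0.05, so no class could pass under these alternatives, whatever the values. In the exact permutation test the smallest possible p was 0.0357 with all 8 samples and 0.0476 without 1 sample of another site. After adjustment, a class could then pass only if most classes, or in the second case all, reached that p together. That no class passed therefore says little about the differences. Within replicate numbers (replicate block) the difference in insertions under 20 bp was 15.6 points with p = 0.0625 (exact permutation, adjusted 0.141). Deviations of equal replicate numbers from their site means correlated at -0.609 to 0.530 over 6 pairs of sites, 1 of them above 0.1. The classes overlap and each site has only 2 replicates, so these values cannot tell whether equal numbers mark samples handled together. Some differences, none of which had passed, turned direction. With UMI types as the denominator, S18 minus the other sites was -0.142 points for 1 to 2 bp deletions, -0.644 for 3 to 9 bp deletions and -0.106 for the most frequent type. With distinct types it was 5.05 for 10 to 49 bp deletions and 0.688 for LIs. Without S1 it was 0.427 for LIs, without S7 it was -0.886 for 3 to 9 bp deletions, and with LDs from 30 bp it was 2.29 for deletions of 10 bp up to that limit.

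Between the S18 replicates, leaving out types on 1 molecule gave -18.6 points for 3 to 9 bp deletions (replicate 2 minus replicate 1, adjusted p = 0.00544, Fisher's exact test), past the threshold, as well as -0.0878 for 1 to 2 bp deletions and 3.17 for LDs. That p compares 2 libraries, covers counting error only, and follows a filter set by the same counts. Over distinct types the differences were 2.12 for 3 to 9 bp deletions, -1.98 for 10 to 49 bp deletions and 1.29 for LIs. The causes were not tested. The Jaccard score of 0.143 became 0.667 for the 10 most frequent types of each replicate and 0.738 without types on 1 molecule, which by construction removes unshared types. The mean of the replicates' median deletion size, 16.25 bp, was 53.25 bp over distinct types, since each frequent small deletion then counts once, and 13.5 to 19 bp without a replicate. Depth limits recurrence, as a type on 1 molecule of about 240 indels may be missed in the other replicate.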
